A study of Mus musculus with 3 samples.

Results

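Nr4a2 and 6 further genes used as markers of the claustrum, of cortical layer 6b or of both were followed across RNA captured from ribosomes of the mouse cortex-amygdala transition zone. The 7 genes, out of 32531 listed, were taken by symbol and are Nr4a2, Gnb4, Ntng2, Synpr, Cplx3, Nxph4 and Moxd1. Nr4a2 was selected on its CPM in these 3 libraries, which had been seen to differ widely, so its levels are a description and carry no test, and the other genes were chosen by name with results of these data known. The question put to the data was whether the other 6 genes follow that pattern. All libraries came from 1 group of adult, untreated control mice of the transgenic line Lypd1-EGFP-L10a OI82, in which an EGFP-tagged ribosomal protein L10a is carried by cells marked through the Lypd1 gene, and the RNA was the fraction pulled down with antibodies to EGFP. There were 3 such libraries, called replicates 1, 2 and 3, and the series describes 3 mice. The labels leave unsaid whether libraries and mice correspond, so any p-value measures the spread between these libraries, part of which may be technical. No input RNA and no second group was analysed here, and the values below are therefore levels within the captured RNA rather than enrichments.

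The claustrum is a thin sheet of glutamatergic neurons beneath the insular cortex, and the endopiriform nucleus continues it ventrally, next to the piriform cortex and the amygdala. Layer 6b is the deepest cell layer of the cortex and holds neurons that outlive the fetal subplate. Nr4a2, also called Nurr1, encodes an orphan nuclear receptor that binds DNA alone or with a retinoid X receptor. It marks both cell groups, is needed for midbrain dopamine neurons, and belongs to a family whose transcription can be induced by neuronal activity.

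The unit used throughout is CPM, which scales each library to a total of 1000000 counts assigned to genes. The libraries held 8668527 to 24690301 assigned counts, and 3 counts, taken as the limit that a count of 0 allows, corresponded to 0.122 to 0.346 CPM. Detection meant at least 1 CPM in all of the libraries, which held for 12773 genes. The 12 neuronal markers were all detected, with summed levels of 10015 to 18403 CPM, as were all 8 glutamatergic markers at 2960 to 4650 CPM and 8 of 9 GABAergic markers at 577 to 1103 CPM. Astrocyte markers were detected for 8 of 8 genes (1340 to 2252 CPM in sum), oligodendrocyte markers for 7 of 8 (226 to 386 CPM) and oligodendrocyte precursor markers for 5 of 5 (135 to 246 CPM). Detection held for microglial markers in 4 of 8 genes (22.2 to 46.5 CPM), endothelial markers in 5 of 7 (46.3 to 100.1 CPM), mural cell and fibroblast markers in 7 of 8 (66.0 to 175 CPM), interneuron subtype markers in 10 of 11 (505 to 667 CPM) and cholinergic markers in 0 of 3 (0.810 to 46.9 CPM). In these bulk libraries fewer cells of a type and less RNA per cell cannot be told apart.

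Because Nr4a2 set the pattern, the DNA just before its start site is shown, beside that of Synpr, the gene with the steadiest level. Each window is the 250 bases before the RefSeq start in GRCm38.p6, the assembly named mm10, read 5′ to 3′ on the strand of the gene. The windows lie at chr2:57124004-57124253 on the minus strand for Nr4a2 and at chr14:13284530-13284779 on the plus strand for Synpr. Capitals mark TGACG on either strand, the core of the cyclic AMP response element through which CREB acts on many activity-regulated genes.
Nr4a2: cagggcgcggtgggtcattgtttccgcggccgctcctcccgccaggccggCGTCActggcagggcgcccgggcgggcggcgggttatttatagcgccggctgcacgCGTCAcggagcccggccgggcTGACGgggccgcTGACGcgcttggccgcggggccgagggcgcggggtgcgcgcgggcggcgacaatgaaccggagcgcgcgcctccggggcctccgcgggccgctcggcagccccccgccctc
Synpr: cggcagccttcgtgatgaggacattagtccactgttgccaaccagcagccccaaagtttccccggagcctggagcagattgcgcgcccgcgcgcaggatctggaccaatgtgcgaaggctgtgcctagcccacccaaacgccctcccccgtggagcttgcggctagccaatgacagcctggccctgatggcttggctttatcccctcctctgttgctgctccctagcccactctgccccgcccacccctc
The Nr4a2 window held 4 matches to TGACG, read as TGACG or as CGTCA on the gene strand, starting 200, 144, 123 and 111 bases before the start site. The Synpr window held 0. Of 32851 RefSeq windows of the same length, 17.8% held at least 1 match and 0.137% held 4 or more, a count chosen after the Nr4a2 window was seen. The full palindrome TGACGTCA was in 1.55% of windows and in neither of these, and AAAGGTCA, the element that Nr4a receptors bind as monomers, searched on both strands, was in 1.34% of windows and in neither of these. Windows were matched for 5 of the 7 genes, Nr4a2, Ntng2, Synpr, Cplx3 and Moxd1. None of these 3 sequences was found in any window of Ntng2, Cplx3 or Moxd1, or in the second window of Synpr. G and C made up 80% of the Nr4a2 window and 64% of that of Synpr, against a median of 52.4% over all windows. The windows were not matched for G and C content. The shares above are therefore not rates among windows as rich in G and C as that of Nr4a2. In the annotation used, the Nr4a2 window overlapped no exon, while the Synpr window overlapped an exon of Gm5087. The Ntng2 window, at chr2:29248100-29248349, lies inside the annotated gene and overlapped exons of Ntng2 itself and of 6530402F18Rik, so it is not the sequence before the start of the annotated gene. These matches are descriptions of sequence and not of binding.

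Nr4a2 was low in replicate 1, intermediate in replicate 3 and high in replicate 2. It measured 16.6 CPM in replicate 1 (95% exact Poisson interval 14.8 to 18.5, from 307 counts), 134 CPM in replicate 2 (129.7 to 139, from 3313 counts) and 31.8 CPM in replicate 3 (28.2 to 35.8, from 276 counts). These intervals, like those below, cover counting error only, and they do not overlap. Replicate 2 was 8.10 times replicate 1 (95% counting interval 7.20 to 9.13) and 4.21 times replicate 3 (3.73 to 4.78), and replicate 3 was 1.92 times replicate 1 (1.63 to 2.27). Among detected genes Nr4a2 stood at the 38.3rd percentile in replicate 1, the 88.4th in replicate 2 and the 55.5th in replicate 3. Its mean of 60.9 ± 64.0 CPM (SD, n = 3) thus has an SD larger than itself, and without replicate 2 the mean was 24.2 CPM. Nr4a2 (ENSMUSG00000026826.13) runs from 57106830 to 57124003 on chromosome 2 in GRCm38, on the minus strand.

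**Figure D1:**
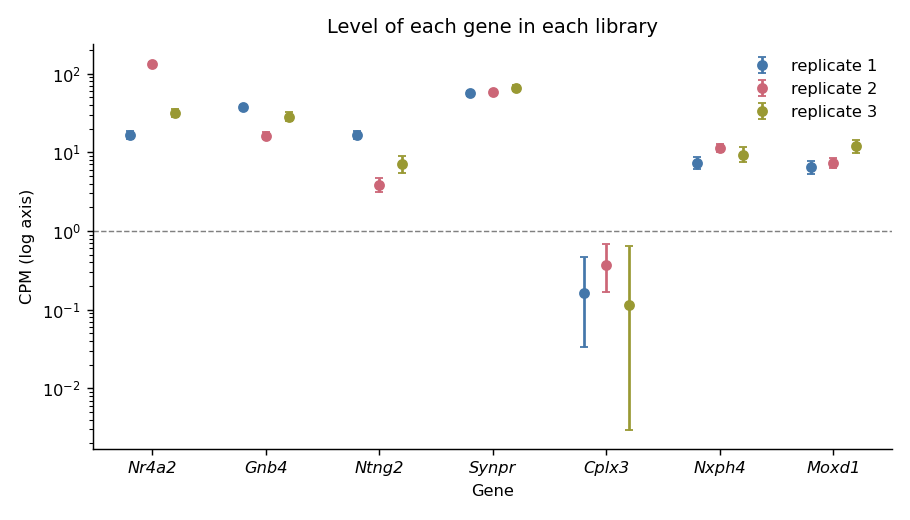
CPM on a log axis for the 7 genes in replicates 1, 2 and 3, with bars for the 95% exact Poisson interval of each count and a dashed line at 1 CPM. Nr4a2 reaches 134 CPM in replicate 2 against 16.6 and 31.8 CPM in the others, Synpr lies between 56.0 and 66.2 CPM in every library, and Cplx3 is below 1 CPM throughout.

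The genes used chiefly as claustrum markers did not share the Nr4a2 pattern, and a pair of them had their lowest level where Nr4a2 had its highest. Gnb4, which encodes a beta subunit of heterotrimeric G proteins, measured 37.1 CPM in replicate 1, 16.3 CPM in replicate 2 and 28.3 CPM in replicate 3, a mean of 27.2 ± 10.4 CPM (SD, n = 3). Replicate 2 was the lowest library, at 0.439 times replicate 1 (95% counting interval 0.387 to 0.497) and 0.576 times replicate 3 (0.490 to 0.678). Gnb4 (ENSMUSG00000027669.14) lies on the minus strand of chromosome 3, from 32580332 to 32616585.

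Ntng2 encodes netrin-G2, a membrane-anchored adhesion protein of axons that binds the synaptic protein NGL-2. It measured 16.7 CPM in replicate 1, 3.89 CPM in replicate 2 and 7.04 CPM in replicate 3, with a mean of 9.20 ± 6.66 CPM (SD, n = 3) that was 5.46 CPM without replicate 1. The level in replicate 1 was 4.29 times that in replicate 2 (95% counting interval 3.40 to 5.45) and 2.37 times that in replicate 3 (1.80 to 3.17). Per kilobase of exon, Ntng2 and Nr4a2 stood at similar levels in replicate 1, 4.18 and 4.08 CPM per kb, whereas in replicate 2 they stood at 0.974 and 33.1 CPM per kb. Ntng2 (ENSMUSG00000035513.19) spans 29194541 to 29253005 on the minus strand of chromosome 2. The non-coding gene 6530402F18Rik covers 14.0% of its exon bases on the same strand, and reads there may have been left uncounted as ambiguous. That gene itself had 36, 61 and 102 counts in replicates 1, 2 and 3. No other exon overlap with another annotated gene was found for any of the 7 genes.

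Synpr encodes synaptoporin, a synaptic vesicle membrane protein of the synaptophysin family that is also made by interneurons. It was the steadiest of the 7 genes relative to its mean, with 56.0 CPM in replicate 1, 59.2 CPM in replicate 2 and 66.2 CPM in replicate 3 (mean 60.5 ± 5.24, SD, n = 3). The highest library exceeded the lowest 1.18-fold, and only 4.46% of detected genes had a smaller such ratio. Synpr (ENSMUSG00000056296.17) lies on chromosome 14, plus strand, from 13284780 to 13616340.

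The genes used chiefly as layer 6b markers ranged from near absence to about 10 CPM. Cplx3 encodes a complexin, a regulator of the SNARE fusion machinery found in layer 6b neurons and at retinal ribbon synapses. It was represented by 3, 9 and 1 counts in replicates 1, 2 and 3, which is 0.162, 0.365 and 0.115 CPM. Replicate 2 had the highest value, but its ratio to replicate 1 of 2.25 had a 95% counting interval of 0.562 to 12.9, so no order of the libraries was detectable at this depth. Cplx3 (ENSMUSG00000039714.9) lies at 57599992 to 57606281 on the minus strand of chromosome 9.

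Nxph4 encodes neurexophilin 4, a secreted glycoprotein of the family that binds alpha-neurexins. It measured 7.39 CPM in replicate 1, 11.4 CPM in replicate 2 and 9.34 CPM in replicate 3 (mean 9.39 ± 2.01, SD, n = 3), and it was the one member of at least 1 CPM in the same order as Nr4a2. The excess of replicate 2 over replicate 1 was 1.54-fold (95% counting interval 1.25 to 1.91), and the interval of its ratio to replicate 3, 1.22 (0.952 to 1.58), includes 1. Nxph4 (ENSMUSG00000040258.6) spans 127525473 to 127534559 on the minus strand of chromosome 10.

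Moxd1 encodes a monooxygenase related to dopamine beta-hydroxylase and is used as a subplate marker. It measured 6.42 CPM in replicate 1, 7.29 CPM in replicate 2 and 11.9 CPM in replicate 3 (mean 8.53 ± 2.93, SD, n = 3). Replicate 3 was the highest, at 1.85 times replicate 1 (95% counting interval 1.41 to 2.43), and replicates 1 and 2 were not separated beyond counting error, with a ratio of 1.13 (0.895 to 1.44). Moxd1 (ENSMUSG00000020000.7) lies on chromosome 10, plus strand, from 24223517 to 24302790.

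**Figure D2:**
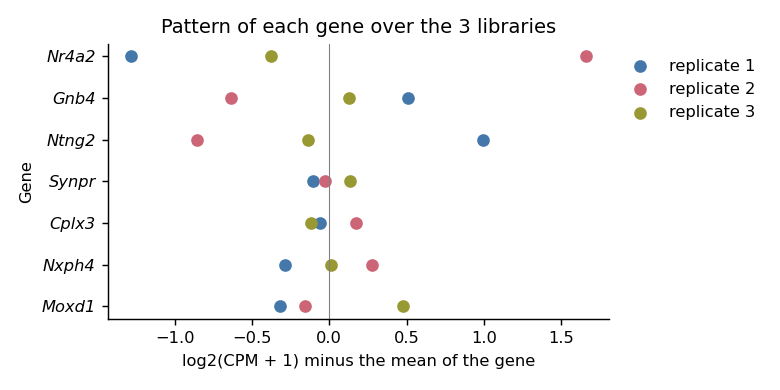
Deviation of log2(CPM + 1) from the mean of each gene, on the x axis, for replicates 1, 2 and 3 of the 7 genes on the y axis. Nr4a2 has replicate 2 far to the right, Gnb4 and Ntng2 have replicate 2 farthest to the left, and the 3 points of Synpr lie close together.

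Levels of different genes were compared after division by exon length. Per kilobase of annotated exon, Nr4a2 averaged 15.0 ± 15.8 CPM per kb, Synpr 6.40 ± 0.555, Nxph4 5.60 ± 1.20, Moxd1 2.67 ± 0.917, Ntng2 2.31 ± 1.67, Gnb4 2.14 ± 0.823 and Cplx3 0.0724 ± 0.0449 CPM per kb (SD, n = 3). Gnb4 moves from the third place by mean CPM to the sixth, since its annotated exons cover 12692 bases, against 1675 for Nxph4 and 4059 for Nr4a2. Differences between neighbours in this order were taken within each library on the scale log2(CPM per kb + 0.1). Nxph4 exceeded Moxd1 by 1.07 ± 0.48 and Gnb4 exceeded Cplx3 by 3.66 ± 0.90, both in 3 of 3 libraries. The other neighbours did not differ beyond their spread. Nr4a2 minus Synpr was 0.67 ± 1.52, and Synpr was the higher in replicate 1 (5.93 against 4.08 CPM per kb). Synpr minus Nxph4 was 0.21 ± 0.29, Moxd1 minus Ntng2 was 0.39 ± 1.22 and Ntng2 minus Gnb4 was −0.06 ± 0.49.

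None of the other genes matched the pattern of Nr4a2 in size beyond counting error. Of the 5 other members with a mean of at least 1 CPM, 0 were at least 2-fold higher in replicate 2 than in each other library, where 3.74% of the 15336 genes of at least 1 CPM were. Cplx3 passed that fold on 9 against 3 and 1 counts, which the counting intervals do not separate. Replicate 2 was the highest library for 1 of the 5, Nxph4, where it was the highest for 29.2% of all genes. The full order of replicates 2, 3 and 1 was shared by that 1 gene, against 15.8% of all genes. Replicate 2 was the lowest library for Gnb4 and Ntng2, as for 37.7% of all genes. Ntng2 was the only one of the 5 at least 2-fold higher in replicate 1 than in each other library, a share of 6.74% over all genes. With numbers this small, these shares do not set the members apart from other genes.

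If a gene followed Nr4a2, its log2(CPM + 1) difference from Nr4a2 would stay the same across libraries. Instead the SD of that difference over the 3 libraries was 2.41 for Ntng2, 2.09 for Gnb4, 1.58 for Moxd1, 1.5 for Synpr, 1.37 for Cplx3 and 1.24 for Nxph4, where the SD of Nr4a2 itself was 1.51. Cplx3 lay below 1 CPM in every library, where the pseudocount flattens log2 values, so its SD does not show whether it follows Nr4a2. For Ntng2 the difference ran from 0.01 in replicate 1 to −2.03 in replicate 3 and −4.79 in replicate 2. For Gnb4 it was 1.12, −0.17 and −2.97 in the same replicates. After subtraction the spread was wider than that of Nr4a2 itself for Ntng2, Gnb4 and Moxd1. It was wider than the gene's own spread for all 6, which ran from 0.12 for Synpr to 0.94 for Ntng2. Nr4a2 was selected for its wide spread, and a gene that does not vary would give 1.51. Widening by subtraction is therefore largely set by that selection, and it is not a test of whether a gene follows Nr4a2.

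Variation between the libraries was then set against the variation of all genes. The test was edgeR's goodness of fit to a model with 1 mean per gene, over 15336 genes, and an adjusted p under 0.05 was needed for a call (Benjamini-Hochberg). It called 32 genes, or 0.209%, and 0 of the 5 other members tested. Nr4a2 was among the genes fitted, but its own result is not given, because it was selected for its spread. Adjusted p was 0.944 for Ntng2, 0.982 for Gnb4 and between 0.998 and 0.999 for Nxph4, Moxd1 and Synpr. None of the 5 had an unadjusted p under 0.05, which 1200 of all genes had, and DESeq2 marked 0 of the 5 as a dispersion outlier. Cplx3 was too low for this test, and it had an adjusted p of 0.983 when all genes with a count were tested. In simulated data, genes with 1 high library were called in 49.6% of cases at 8-fold and in 14.4% at 4-fold, and genes with 1 low library in 10% of cases at 8-fold and in 0.4% at 4-fold. A missing call for a gene such as Ntng2, with a 4.29-fold range, therefore does not show that it was constant.

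The widths of the spread differed among the genes as a description. The highest over the lowest library was 8.10 for Nr4a2, a ratio that 98.0% of detected genes fell below. The ratio was 4.29 for Ntng2 (90.1% of detected genes below) and 2.28 for Gnb4 (62.6%). It was 1.85 for Moxd1 (44.8%), 1.54 for Nxph4 (26.2%) and 1.18 for Synpr (4.46%). The median over detected genes was 1.95.

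**Figure D3:**
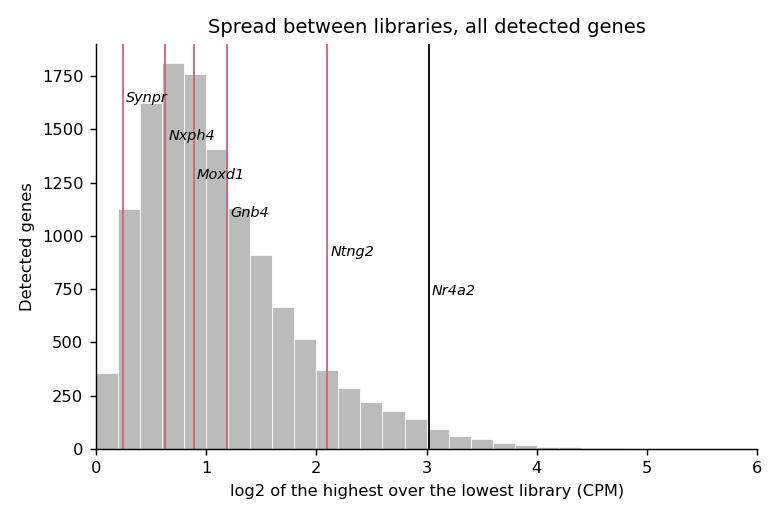
Histogram of detected genes by the log2 ratio of the highest over the lowest library in CPM, with vertical lines at the 6 detected members. Nr4a2 lies in the right tail, with 98.0% of genes below its 8.10-fold ratio, whereas Synpr lies near the left edge at 1.18-fold.

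Wider lists for the same tissue gave the same picture of mixed directions. Of 8 further claustrum and endopiriform genes matched, 7 were detected and 0 were called. An unadjusted edgeR p under 0.05 was found for 1, as for 1200 of the 15336 genes tested. These 8 genes were highest in replicate 1 for 2, in replicate 2 for 2 and in replicate 3 for 4. The shares over all genes were 31.6%, 29.2% and 39.2%. The order of Nr4a2 was followed by 0, against 15.8% of all genes. Gng2, a G protein gamma subunit, measured 553, 607 and 298 CPM in replicates 1, 2 and 3, Nr2f2, a nuclear receptor of caudal and ventral forebrain, 188, 135 and 150 CPM, and the AP-1 factor Fosl2 55.2, 67.2 and 44.8 CPM. Car3, a carbonic anhydrase that names a claustrum-related class of cortical neurons and was picked out after its values were seen, measured 12.5 CPM in replicate 1, 0.081 CPM in replicate 2 and 1.15 CPM in replicate 3. Like Gnb4 and Ntng2 it was highest in replicate 1 and lowest in replicate 2, but its variation was not called (edgeR adjusted p = 0.255). Its values rest on 232, 2 and 10 counts in replicates 1, 2 and 3, and it was the gene of this list that was not detected. Nr2f2 had the same highest and lowest library, and no other gene of the list did.

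Of 13 further layer 6b and subplate genes matched, 10 were detected and 0 were called, with 1 at an unadjusted p under 0.05. Replicate 1 was the highest library for 4 of them, replicate 2 for 4 and replicate 3 for 5. The shares over all genes were 31.6%, 29.2% and 39.2%. The order of Nr4a2 was followed by 1, against 15.8% of all genes. Hs3st4, a heparan sulfate sulfotransferase of deep-layer neurons, measured 101, 101 and 84.4 CPM in replicates 1, 2 and 3, the netrin receptor Unc5c 70.1, 75.2 and 73.8 CPM, and the cadherin Cdh10 32.2, 22.7 and 53.1 CPM. Ctgf, a secreted matrix protein that defines layer 6b together with Cplx3 and was named after its values were seen, was low but present, at 5.72, 5.22 and 3.58 CPM. All 8 genes of layer 6 corticothalamic neurons were detected and 0 were called, with 1 at an unadjusted p under 0.05. Replicate 1 was the highest library for 5 of the 8, against 31.6% of all genes. Replicate 2 was the highest for 2, Tbr1 and Zfpm2, and Tbr1 was the 1 gene of the list in the order of Nr4a2. Tbr1, a transcription factor of early-born glutamatergic neurons, measured 55.3, 110.0 and 76.1 CPM in replicates 1, 2 and 3, Zfpm2 measured 37.8, 46.9 and 34.3 CPM, and Rprm, highest in replicate 1, measured 70.8, 31.5 and 35.5 CPM.

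The nearest relatives of Nr4a2 did not share its excess in replicate 2. Nr4a1, the family member most used as an activity marker, measured 26.2, 22.3 and 26.5 CPM in replicates 1, 2 and 3, so that replicate 2 was 0.851 times replicate 1 (95% counting interval 0.752 to 0.963). Nr4a3 measured 27.7, 18.1 and 11.3 CPM, with replicate 1 the highest. The dimer partners Rxra, Rxrb and Rxrg measured 30.3, 15.9 and 13.4 CPM, 10.3, 20.0 and 17.7 CPM, and 4.48, 2.31 and 5.65 CPM. All 5 of these genes were detected and 0 were called. None had an unadjusted edgeR p under 0.05, which 1200 of the 15336 genes tested had. Rxrb was the 1 gene of the 5 in the order of Nr4a2, against 15.8% of all genes.

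Of 13 immediate-early and activity-regulated genes, 12 were detected and 0 were called. An unadjusted edgeR p under 0.05 was found for 3 of the 12, as for 1200 of the 15336 genes tested. In CPM, replicate 3, not replicate 2, was the highest library for 8 of the 12, against 39.2% of all genes. That number depends on the scaling, and it was lower with TMM or DESeq2 scaling. Egr1, the highest of the list in CPM, measured 388, 379 and 469 CPM in replicates 1, 2 and 3, Egr3 159, 223 and 153 CPM and the synaptic plasticity gene Arc 10.7, 30.4 and 64.6 CPM. A few others were named after their values were seen. Fos, the classical activity marker, was lowest in replicate 2, with 15.8, 3.44 and 16.2 CPM, and so was Npas4, with 15.4, 6.64 and 49.4 CPM. Bdnf, the neurotrophin, was the 1 gene of the list at least 2-fold higher in replicate 2 than in each other library, against 3.74% of all genes. It measured 7.29, 43.9 and 15.7 CPM, but its variation was not called (edgeR adjusted p = 0.435). Of 11749 other genes with a mean of at least 5 CPM, Bdnf ranked 16th by nearness to the Nr4a2 pattern.

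**Figure D4:**
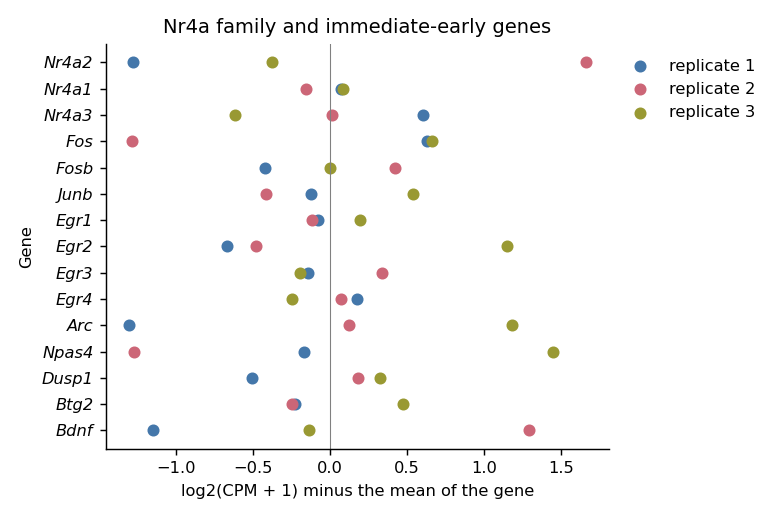
Deviation of log2(CPM + 1) from the mean of each gene, on the x axis, in replicates 1, 2 and 3 for Nr4a2, its 2 relatives and the 12 detected immediate-early genes. Replicate 2 is far to the right for Nr4a2 and Bdnf and far to the left for Fos and Npas4.

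Of 7 genes that Nr4a2 is known to control in dopamine neurons or to act beside, 4 were detected and 0 were called, with 1 at an unadjusted p under 0.05. The retinaldehyde dehydrogenase Aldh1a1 was at 74.8, 24.3 and 13.5 CPM in replicates 1, 2 and 3. Slc18a2, which loads monoamines into vesicles, was at 2.97, 6.80 and 19.4 CPM, and the peptide gene Vip at 1.46, 6.16 and 2.77 CPM. Of the 6 tested, Vip and Ddc were at least 2-fold higher in replicate 2 than in each other library, against 3.74% of all genes. Ddc measured 1.78, 3.77 and 0.461 CPM. Another 2 of the 6 were at least 2-fold higher in replicate 1 than in each other library, against 6.74% of all genes. Vip was the 1 gene of the list in the order of Nr4a2, against 15.8% of all genes. The defining dopaminergic genes were low. The dopamine transporter Slc6a3 was at 0.162, 0.081 and 0.115 CPM, and Th, the rate-limiting enzyme of dopamine synthesis, at 4.91, 0.486 and 1.5 CPM.

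Relatives of the other members included genes at much higher levels per kilobase of exon. Of the 4 other G protein beta subunits 3 were detected, with Gnb1 at 943 ± 315 CPM, Gnb5 at 124 ± 5.86 and Gnb2 at 6.68 ± 1.06 (SD, n = 3), and Gnb3 averaged 0.018 CPM. The list also held a pair of genes named like them that do not encode beta subunits, Gnb2l1 at 75.1 ± 12.5 CPM, which encodes the ribosomal scaffold RACK1, and Gnb1l at 2.77 ± 1.57 CPM (SD, n = 3), which encodes a WD-repeat protein. Per kilobase of exon, Gnb1 stood at 221 CPM per kb and Gnb5 at 39.7, against 2.14 for Gnb4. Netrin-G and ligand genes were detected for 4 of 4, with the NGL-2 gene Lrrc4 at 103, 54.7 and 53.4 CPM in replicates 1, 2 and 3, Lrrc4c at 213 ± 28.0 CPM, Lrrc4b at 60.6 ± 4.71 CPM and Ntng1 at 45.3 ± 7.08 CPM (SD, n = 3). Per kilobase, Ntng1 stood at 5.49 CPM per kb, against 2.31 for Ntng2. Of the 4 netrin-G and ligand genes Lrrc4 alone was, like its partner Ntng2, highest in replicate 1, against 31.6% of all genes. Lrrc4c was the 1 gene of that list in the order of Nr4a2, with 182, 236 and 222 CPM, against 15.8% of all genes.

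In the synaptophysin family 2 of 3 other genes were detected, with Syp at 525 ± 121 CPM, Sypl at 33.5 ± 17.4 CPM (SD, n = 3) and Sypl2 at 10.1, 0.365 and 2.31 CPM in replicates 1, 2 and 3. Per kilobase, Syp stood at 101 CPM per kb, against 6.40 for Synpr. The complexins Cplx2 and Cplx1 were at 846 ± 276 and 402 ± 186 CPM (SD, n = 3), and Cplx4 had 0 counts in all libraries. Per kilobase of exon, Cplx1 and Cplx2 measured 184 and 172 CPM per kb, against 0.0724 for Cplx3. Replicate 2 was the highest library for Syp, 1 of 3 genes on its list, and for Cplx2, 1 of 2 complexins tested. The share over all genes was 29.2%. In replicates 1, 2 and 3 Syp measured 470, 663 and 441 CPM and Cplx2 764, 1154 and 621 CPM. Of the other neurexophilins, Nxph1, an interneuron-rich member, measured 108, 26.7 and 38.0 CPM in replicates 1, 2 and 3, Nxph3 0.918, 0.405 and 4.50 CPM, and Nxph2 0.108, 0.203 and 0.461 CPM. Nrxn3 and Nrxn2, which encode neurexins, measured 316 ± 9.56 and 128 ± 32.1 CPM (SD, n = 3). Among the enzymes related to Moxd1, Pam, which amidates neuropeptides, was at 44.4 ± 15.8 CPM (SD, n = 3), Dbh at 0, 2.27 and 0.461 CPM, and Moxd2 had 0 counts throughout. None of the genes tested on these 6 lists of relatives was called, and 1 complexin and 1 gene of the neurexophilin and neurexin list had an unadjusted p under 0.05.

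The levels of Lypd1 and of the cell class lists are given here beside those of the members, as descriptions, and of the genes on these lists only Chat was called. Where Nr4a2 was highest, in replicate 2, Lypd1, the gene through which the line is marked, was highest too, with 232, 601 and 272 CPM in replicates 1, 2 and 3. Its ratio of replicate 2 to replicate 1 was 2.59, against 8.10 for Nr4a2. Rpl10a measured 122, 186 and 114 CPM. Glutamatergic markers were highest in replicate 2 for 6 of 8 genes, against 29.2% of all genes, with summed levels of 2960, 4650 and 3215 CPM. Camk2a made up most of these sums, with 2182, 3677 and 2408 CPM. Of these 8 genes 3, Slc17a7, Camk2a and Neurod2, followed the full order of Nr4a2, against 15.8% of all genes. Neurod2, a transcription factor of glutamatergic neurons, measured 44.5, 167 and 112 CPM. Slc17a6 and Neurod6 were instead lowest in replicate 2, with 127, 66.5 and 76.8 CPM and with 15.0, 5.59 and 15.1 CPM. The 12 neuronal markers were highest in replicate 2 for 6 genes and in replicate 1 for the other 6, with 12843, 18403 and 10015 CPM in sum. Snap25, a SNARE protein of synaptic vesicle release, made up much of that sum, and without it the sums were 5238, 5276 and 3699 CPM, with replicates 1 and 2 nearly level. Endothelial markers were highest in replicate 2 for 5 of 7, with 76.3, 100.1 and 46.3 CPM. The part of any of these in the level of Nr4a2 was not tested.

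Where Gnb4 and Ntng2 were highest, in replicate 1, so were 7 of 9 GABAergic markers, against 31.6% of all genes, with summed levels of 1103, 577 and 809 CPM in replicates 1, 2 and 3. Astrocyte markers were highest there for 7 of 8 genes, with 2252, 1366 and 1340 CPM, and oligodendrocyte markers for 6 of 7 tested, with 386, 233 and 226 CPM for the list. Mural cell and fibroblast markers were highest there for 6 of 8, with 175, 66.0 and 71.4 CPM. The lists of interneuron subtypes, oligodendrocyte precursors and microglia did not share this. Interneuron subtype markers were highest in replicate 1 for 4 of 10 tested and in replicate 3 for 5. Oligodendrocyte precursor markers were highest in replicate 1 for 1 of 5 and in replicate 3 for 3. Microglial markers were highest in replicate 1 for 2 of 5 tested and in replicate 3 for 2. Cholinergic markers did share it, being highest in replicate 1 for 2 of 2 tested, with 46.9, 0.810 and 2.65 CPM for the list of 3. Of these, the vesicular acetylcholine transporter gene Slc18a3 had 0 counts in replicates 2 and 3. Chat, which makes acetylcholine, was the 1 gene on all the lists whose variation was called (edgeR adjusted p = 0.0352). Nr4a2 is left out of this statement, since no p is given for it. The nuclear and abundant non-coding RNAs, which were highest in replicate 3 for 4 of 6 genes, against 39.2% of all genes, summed to 142756, 124038 and 208036 CPM, and Moxd1 and Synpr were highest in the same replicate. The part of these in the levels of Gnb4, Ntng2, Moxd1 and Synpr was not tested.

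Genes most like Nr4a2 were sought over all genes with a mean of at least 5 CPM, by the distance between centred log2(CPM + 1) values over the 3 libraries. The 10 nearest were Grwd1, Capsl, Cfap70, Gm11549, Ikzf1, AK035052, Oxsm, Gm13446, Smim8 and Glt8d2, at distances of 0.166 to 0.365, against a median of 2.24 over the 11749 genes and 2.13 for a gene that does not vary. All 10 had low means, 5.02 to 17.5 CPM, and 8 of them were under 5 CPM in both replicates 1 and 3. Those 8 passed the minimum only through replicate 2, so at low levels the minimum itself favours genes shaped like Nr4a2. Grwd1, a ribosome assembly factor, measured 1.03, 14.5 and 3.35 CPM in replicates 1, 2 and 3. Capsl, a calcium-binding protein, measured 2.11, 28.7 and 5.77 CPM, and Cfap70, a protein of motile cilia, 0.702, 14.7 and 2.999 CPM. Of the members, Nxph4 was nearest at 1.75, and 18.7% of genes were nearer. Synpr and Moxd1 lay at 2.12 and 2.23, with 41.6% and 49.3% nearer, about where a gene that does not vary would lie. Gnb4 and Ntng2 lay at 2.95 and 3.41, with 85.7% and 94.0% of genes nearer. Over 3 libraries such nearness is a description of these libraries and was not tested.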

How the data were processed

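RNA sequencing libraries of EGFP-captured polysomes were used, 3 of 1 group. The authors deposited whole-number read counts per gene, without scaling. The submitters' processing notes name STAR 2.0.0e, HTSeq and the mm10 build. The sources used here give no annotation or strand setting, so a gene and its antisense partner cannot be told apart. The assigned counts were 18526251, 24690301 and 8668527. HTSeq summary classes and a row named unknown with 0 counts stayed out of library sizes. Entries in no feature made up 25.6% to 45.3% of all entries and those with more than 1 alignment 16.5% to 32.7%, and both shares are lost to the gene counts.

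CPM, exact Poisson intervals and Clopper-Pearson intervals of count ratios (95%) were computed with Python 3.11.15, SciPy 1.17.1, pandas 2.3.3 and numpy 2.4.6, and figures with matplotlib 3.10.9. Log2 values use a pseudocount of 1, which understates differences of low genes. The variation test used edgeR 4.0.16 under R 4.3.3 (TMM scaling, intercept only, trended dispersion, chi-square goodness of fit on 2 degrees of freedom) over genes with a mean of at least 1 CPM. With 1 group, no contrast and no quasi-likelihood test exists. DESeq2 1.42.0 served as an alternative. The test was tested on simulated data in 5 draws, each with 200 planted genes among 15336. Exon lengths are unions over GENCODE M21 transcripts (GRCm38), and promoter sequences are from RefSeq (GRCm38.p6).

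The members and the lists were chosen with earlier results of these data known. Of 183 list entries 179 were matched by symbol. Named genes are the 7 members, their relatives, the most abundant members of each list, called list members, and the 10 genes nearest to Nr4a2 with a mean of at least 5 CPM. A relative that this rule covers is not reported here. Genes named outside that rule, namely Car3, Ctgf, Fos, Npas4, Bdnf, Th, Slc6a3, Ddc, Slc18a3, Neurod2, Slc17a6 and Neurod6 in the comparisons, were chosen after their values were seen. Alternatives were other scalings, filters, folds, pseudocounts and dispersions, and leaving out each replicate.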

Additional observations from a re-analysis of the deposited data

How the results depend on the processing

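With 3 libraries of 1 group, no permutation test can pass a threshold, and the shallowest library, replicate 3, limits Cplx3 most. No paired analysis was possible because there is 1 group. The order of the libraries held under total, TMM and DESeq2 scaling and with totals that leave out Rn45s, Malat1, Meg3 and Lars2 for Nr4a2, Gnb4, Ntng2, Cplx3, Nxph4 and Moxd1. For Nr4a2 the ratio of replicate 2 to replicate 1 was 7.95 to 8.42 and that to replicate 3 was 3.86 to 4.72. DESeq2 size factors put Synpr level in replicates 2 and 3 (ratio 1.001), which brought the members highest in replicate 2, and those in the order of Nr4a2, from 1 to 2 each. The shares over all genes under that scaling were 33.5% and 16.7%. TMM and DESeq2 scaling moved the median of all genes by −0.09 to 0.07 (log2), and totals without the 4 abundant genes by 0.20 to 0.32. The latter raised the mean of Synpr to 72.0 CPM. Nr4a1 and Fos were highest in replicate 1 under TMM and DESeq2 scaling and in replicate 3 otherwise. The number of immediate-early genes highest in replicate 3 is therefore lower under those scalings.

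Without replicate 1, 1 of the 5 other members was higher in replicate 2 than in replicate 3, against 43.3% of all genes. Without replicate 3, 3 of the 5 were higher in replicate 2 than in replicate 1, against 47.8%. Without replicate 2 the mean of Nr4a2 was 24.2 CPM and that of Cplx3 0.139 CPM, and without replicate 1 that of Ntng2 was 5.46 CPM. The genes called as varying numbered 32 in the main test, 780 with a common dispersion, 21 as DESeq2 outliers, and 5 to 22 with 1 replicate left out (5 without replicate 2, 8 without replicate 1). Under each of these, 0 other members were called. Of the 10 genes nearest to Nr4a2, 4 remained among the nearest 10 with a pseudocount of 0.1 and 0 to 3 with 1 replicate left out, so these names rest on the settings. Leaving out a replicate from the pattern comparisons was chosen after seeing the data.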

Other observations

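Rgs4, Tfap2d and Tacr3, genes known from neurons, also lay near the Nr4a2 pattern, Rgs4 at a high level and the others at low ones. They were picked from the 30 nearest genes after their values were seen, so no test is given. Rgs4, a regulator of G protein signalling that is abundant in cortical neurons, measured 146, 685 and 189.8 CPM in replicates 1, 2 and 3 and ranked 24th of 11749 genes. Tfap2d, a transcription factor, measured 0.702, 15.1 and 1.38 CPM and ranked 18th. Tacr3, the neurokinin 3 receptor gene, measured 1.46, 12.8 and 3.92 CPM and ranked 14th. Tfap2d and Tacr3 reached the minimum mean CPM of the search only through replicate 2. At low levels that minimum itself favours genes shaped like Nr4a2, so their ranks are not by themselves evidence of likeness. Lypd1, highest in the same replicate, ranked 259th.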
